A study of Mus musculus with 8 samples.

Results

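The report covers 8 genes that mark subtypes of midbrain dopaminergic neurons in mice. Sox6, Ndnf, Lmo3, Satb1 and Anxa1 are markers of the substantia nigra and Otx2, Calb1 and Nfix are markers of the ventral tegmental area. They were taken by name from a table of 23481 genes. They were read in nuclei with at least 5 UMIs (unique molecular identifiers, each a counted molecule tag) per 10000 from Th, Slc6a3, Slc18a2 and Ddc together and at least 5000 UMIs in all. This gate held 2785 of 3968 nuclei of the PRC2 mutant library and 1260 of 1772 nuclei of the wt library. Just inside the gate, at 5 to 6 UMIs per 10000, lay 109 mutant and 30 wt nuclei, and just outside it, at 4 to 5, lay 96 mutant and 33 wt nuclei.

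Both groups were labelled with the strain DatCreEed, the tissue adult midbrain, the cell type mDA and a time point of 8 months, and their genotypes were PRC2 mutant and wt. Each group was 1 pool of 3 mice (2 female and 1 male), whose nuclei were sorted and run as 1 single-nucleus 3' library on 4 sequencing lanes. The Cre driver in the strain's name is that of the dopamine transporter gene, so loss of Eed, a core subunit of Polycomb repressive complex 2 (PRC2), can occur in cells that have used that promoter. The lanes are not kept apart in the count table, so there was no replicate and no test of a difference between genotypes was made. Genotype and batch cannot be told apart, and every interval below is a 95% interval for counting error only.

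Dopaminergic neurons of the midbrain arise from a common floor plate domain and settle in the substantia nigra, which projects to the dorsal striatum, and in the ventral tegmental area, which projects to limbic and cortical targets. During development the transcription factors Sox6 and Otx2 mark these populations in a largely mutually exclusive way, and Calb1 stays with the dorsal and medial neurons. PRC2 methylates lysine 27 of histone H3 and so keeps developmental genes silent. The comparison asks how the markers were combined in single nuclei when PRC2 was mutated and when it was intact.

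Gated nuclei had a median of 19602 UMIs in the mutant and 25154 in the wt library. The genes of the gate, which make, store and take up dopamine, were themselves lower in the mutant library. Their sum was 1369 CPM (UMIs of a gene per 1000000 UMIs of the nuclei compared) in mutant nuclei and 2453 CPM in wt nuclei, and the median nucleus held 13.7 and 24.7 UMIs of them per 10000. Tags of Eed were at 41.2 CPM in mutant and 21.3 CPM in wt nuclei, so they were higher in the library labelled mutant. These are 3' tags, and the sources at hand do not say which part of Eed was deleted, so they check nothing about the labels. Markers of GABA neurons (Gad1, Gad2 and Slc32a1) were together at 179 CPM in mutant and 33.8 CPM in wt gated nuclei, a ratio of 5.29, with Gad1 alone at 99.6 and 4.18 CPM and none of the 3 at 0. Their part in the results was not tested. The 2 libraries shared 4 cell barcodes, carried by 6 gated nuclei.

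Positions are those of build mm10 in GENCODE M21. Sox6 is at chr7:115470872-116038796 on the minus strand and Ndnf at chr6:65671590-65712326 on the plus strand. Lmo3 is at chr6:138362918-138581968, Satb1 at chr17:51736187-51833290 and Anxa1 at chr19:20373428-20390944, all on the minus strand. Otx2 is at chr14:48657677-48673819 on the minus strand, Calb1 at chr4:15881264-15908064 on the plus strand and Nfix at chr8:84699876-84800344 on the minus strand. All are protein coding.

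The 250 bases before the start listed in RefSeq are shown for Anxa1 and Lmo3. These genes formed the most strongly co-detected pair of the wt library and each has a single listed start. The Anxa1 stretch lies inside the GENCODE span given above, which ends at 20390944, so its RefSeq start is downstream of the GENCODE one. The Lmo3 stretch directly precedes its GENCODE span. Both are on the minus strand of GRCm38.p6, written 5′ to 3′ from RefSeq, at chr19:20390672-20390921 for Anxa1 and chr6:138581969-138582218 for Lmo3. Capitals mark the letters TATAAA.

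Anxa1: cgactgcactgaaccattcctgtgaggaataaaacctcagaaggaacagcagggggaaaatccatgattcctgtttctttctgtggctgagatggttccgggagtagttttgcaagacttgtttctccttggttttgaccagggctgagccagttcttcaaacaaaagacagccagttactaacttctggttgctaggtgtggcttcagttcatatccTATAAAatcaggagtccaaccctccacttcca

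Lmo3: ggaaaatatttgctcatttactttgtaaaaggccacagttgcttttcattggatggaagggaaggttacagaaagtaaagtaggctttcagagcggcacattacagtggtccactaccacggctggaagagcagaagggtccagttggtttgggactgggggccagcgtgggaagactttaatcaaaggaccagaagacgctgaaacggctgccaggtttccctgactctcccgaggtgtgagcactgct

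The Anxa1 stretch holds 2 CG pairs and the letters TATAAA from position -32, counted from the RefSeq start. The Lmo3 stretch holds 6 CG pairs and no TATAAA. Searched on both strands, TATAAA was in 13.6% of 32851 RefSeq windows of 300 bases around gene starts. Windows were listed for 6 of the 8 genes. Neither stretch held TAATCC, the core letters bound by Otx factors, or AACAAT, a form of the letters bound by Sox factors, which were in 7.06% and 10.7% of all windows.

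Levels of the nigral genes differed between the libraries most for Ndnf and Anxa1. Ndnf, which encodes a secreted neurotrophic protein, was at 29.9 CPM in mutant and 80.7 CPM in wt nuclei, 0.371 of the wt level (0.351 to 0.392). Anxa1, the gene of a calcium-dependent phospholipid-binding protein, was at 4.12 CPM in mutant and 14.6 CPM in wt nuclei, 0.283 of the wt level (0.244 to 0.327). Both lay beyond the 1.5-fold limit used for counting, at log2 ratios of -1.29 and -1.10 with a pseudocount of 5 CPM. The direction for Ndnf did not hold among nuclei with few dopamine gene tags, as given below by level.

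The other nigral genes lay within that limit. Sox6, a transcription factor, was at 442 CPM in mutant and 433 CPM in wt nuclei, a ratio of 1.02 (1.00 to 1.04) that turned to 0.931 with dopamine level bins weighted as in the wt library. Satb1, a chromatin organiser, was at 214 CPM in mutant and 241 CPM in wt nuclei. Lmo3, a LIM-domain cofactor, was at 112 CPM in mutant and 168 CPM in wt nuclei, 0.667 of the wt level (0.646 to 0.690). In all, 2 of 5 nigral genes were lower and 0 higher. Of 16294 genes with at least 50 UMIs, 1.46% were lower and 2.01% higher by the same rule.

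Over the whole gate no tegmental gene passed the limit in either direction. Calb1, which encodes the calcium buffer calbindin, was at 54.1 CPM in mutant and 81.6 CPM in wt nuclei, 0.663 of the wt level (0.632 to 0.695). Otx2, a homeodomain transcription factor, was at 8.27 CPM in mutant and 7.62 CPM in wt nuclei, and the interval of the ratio (0.942 to 1.25) includes equal levels. Nfix, a nuclear factor I gene, was at 14.6 CPM in mutant and 10.6 CPM in wt nuclei, a ratio of 1.37 (1.22 to 1.54). Without the gated nuclei that carried glial tags, described below, Nfix passed the limit as higher, at 1.62-fold with the pseudocount.

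The share of nuclei with a tag was compared after each nucleus was thinned to 5000 UMIs. Sox6 had a tag in 56.3% (54.4 to 58.1%) of mutant and 56.3% (53.6 to 59.1%) of wt nuclei. Ndnf had one in 9.95% (8.86 to 11.1%) of mutant and 20.7% (18.5 to 23.1%) of wt nuclei, and Anxa1 in 1.62% (1.18 to 2.16%) of mutant and 4.52% (3.44 to 5.82%) of wt nuclei. Lmo3 had one in 31.7% (29.9 to 33.4%) of mutant and 36.1% (33.5 to 38.8%) of wt nuclei, and Calb1 in 22.0% (20.4 to 23.6%) of mutant and 28.1% (25.6 to 30.7%) of wt nuclei. The intervals of the libraries do not overlap for Ndnf, Anxa1 and Calb1, and those of Lmo3 part only at 33.43 and 33.45% in this 1 thinning. The share of all genes with such a gap is not given here, so these gaps are not read as particular to the members. Unthinned, Ndnf was tagged in 24.5% of mutant and 39.7% of wt nuclei.

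**Figure D1:**
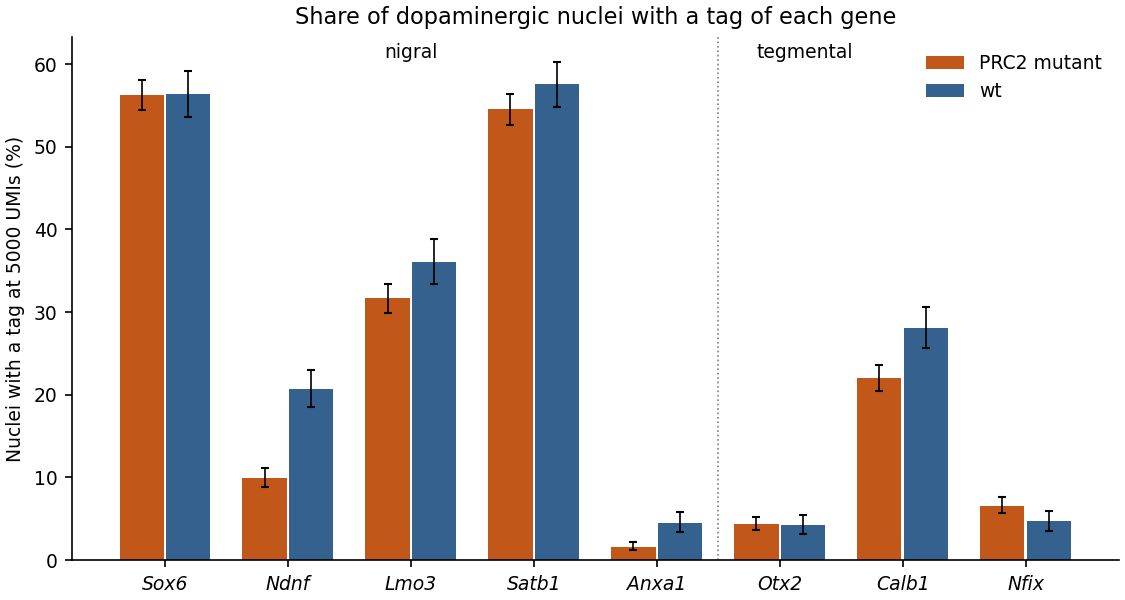
Share of gated nuclei with at least 1 tag of each gene after thinning to 5000 UMIs (%), in PRC2 mutant (orange) and wt (blue) nuclei, with exact 95% binomial intervals. Sox6 stands at 56.3% in both libraries, while Ndnf stands at 9.95% in mutant and 20.7% in wt nuclei.

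Nfix and Sox6 tags were also frequent in glial nuclei. After thinning to 2000 UMIs, Nfix was tagged in 34.3% of 70 mutant and 31.3% of 64 wt oligodendrocyte-like nuclei, against 3.20% and 2.06% of gated nuclei at the same depth. The medians before thinning were 6484 UMIs in mutant and 7116 UMIs in wt oligodendrocyte-like nuclei. Sox6 was tagged in 73.5% of 34 mutant and 84.6% of 39 wt astrocyte-like nuclei, against 39.5% and 40.7% of gated nuclei.

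Gated nuclei with at least 5 UMIs per 10000 of glial or vascular markers made up 8.15% of the mutant and 11.3% of the wt gate. Nfix was at 40.8 CPM in these mutant nuclei and at 43.5 CPM in these wt nuclei. In the gated nuclei without such tags it was at 11.4 CPM in mutant and 5.15 CPM in wt nuclei, and the ratio of mutant to wt was then 2.22 in place of 1.37. With the pseudocount this is 1.62-fold, past the limit used for counting, and no other of the 8 calls changed. Sox6 was at 411 CPM with and 446 CPM without these tags in the mutant, and at 435 and 432 CPM in the wt library. Nfix tags thus moved with glial markers. The odds ratios of the Nfix pairs were also computed without the nuclei with glial tags, among 10 settings that include the main setting. Sox6 with Nfix and Otx2 with Nfix in the wt library, and Calb1 with Nfix in the mutant, were over 1 in all 10. Each other Nfix pair lay on both sides of 1 across the settings, and the values without glial tags are not listed below. The part of glial tags in the other Nfix results below was not tested.

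Nigral and tegmental tags were found in the same nucleus less often than independent tags would be, in both libraries. After thinning, 20% (18.5 to 21.5%) of mutant and 23.9% (21.6 to 26.3%) of wt nuclei had a tag of at least 1 gene of each list. Independent lists of the same frequency would share 23.1% of mutant and 27.2% of wt nuclei. The odds ratio of any nigral and any tegmental tag was 0.426 (0.352 to 0.515) in mutant and 0.404 (0.304 to 0.537) in wt nuclei, and these intervals overlap, though not within every dopamine level, as given below. With 2 tags or more required and no thinning they were 0.684 in mutant and 0.552 in wt nuclei. A nigral tag alone was found in 59.4% of mutant and 56.8% of wt nuclei, and a tegmental tag alone in 9.08% and 9.84%.

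The share of nuclei with a tegmental tag fell with the number of nigral genes tagged from 0 through 4. In the mutant it was 44.2% of 573 nuclei with 0 nigral genes, 36.6% of 798 with 1, 22.7% of 834 with 2, 14.1% of 498 with 3 and 6.17% of 81 with 4. In the wt library it was 51.0% of 243, 45% of 331, 32.0% of 303, 15.8% of 273 and 10.2% of 98 nuclei. All 5 nigral genes were tagged in 1 mutant and 12 wt nuclei, and 1 of these mutant and 2 of these wt nuclei (16.7%) had a tegmental tag.

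**Figure D2:**
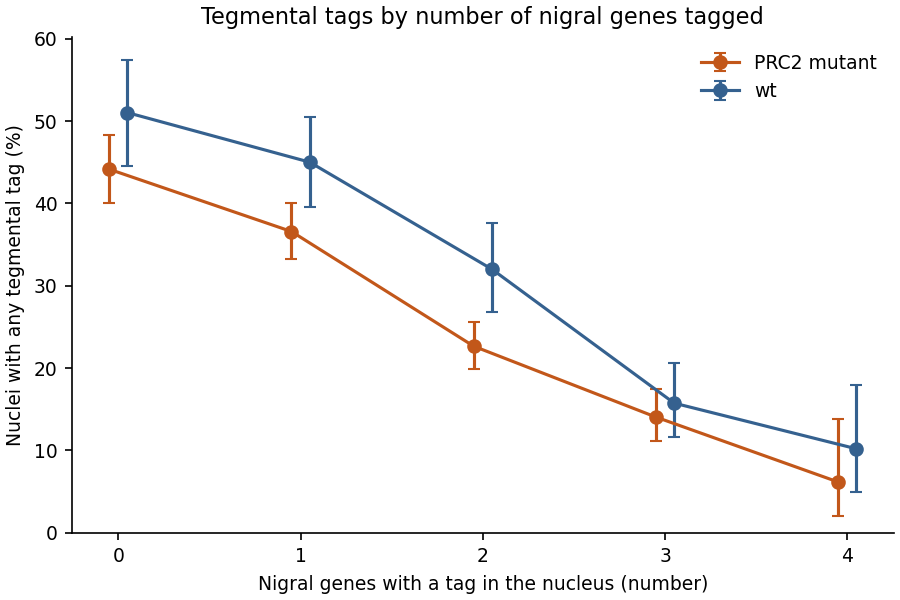
Share of gated nuclei with any tegmental tag (%) by the number of nigral genes tagged in the same nucleus, in PRC2 mutant (orange) and wt (blue) nuclei thinned to 5000 UMIs, with exact 95% binomial intervals. The share stands at 44.2% of mutant and 51.0% of wt nuclei with no nigral tag and at 6.17% and 10.2% of nuclei with 4, and the few nuclei with 5 are not drawn.

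Of the 15 nigral and tegmental pairs, 4 in the mutant and 6 in the wt library had an odds ratio of 0.5 or less. The mutant count was 7 with thinning to 2000 UMIs, and the wt count was 3 without thinning. As background, each member was set against every other gene tagged in 2 to 98% of nuclei, and 3.09% of these ratios were that low in the mutant and 4.82% in the wt library. An odds ratio under 1 was found for 14 mutant and 13 wt pairs. The median background ratio of a member ran from 0.994 to 1.07 in the mutant and from 0.979 to 1.10 in the wt library. Without thinning, all nigral pairs with Nfix were over 1, from 1.27 to 1.64 in mutant and from 1.23 to 2.07 in wt nuclei. So were Satb1 with Otx2 (1.46 and 1.10), Anxa1 with Otx2 and, in the mutant, Anxa1 with Calb1 (1.16), while the other pairs stayed under 1. Within the nigral list 5 of 10 mutant and 8 of 10 wt pairs reached an odds ratio of 2, against 2.8% and 4.68% of the background ratios. Within the tegmental list 2 of 3 mutant and 1 of 3 wt pairs did. Without thinning, Otx2 with Calb1 passed 2 in both libraries and Otx2 with Nfix in the wt library alone. By member, the share of background ratios at 2 or more ran from 0.325% (Lmo3) to 10.6% (Anxa1) in the mutant. In the wt library it ran from 1.08% (Lmo3) to 10.1% (Nfix). The share at 0.5 or less ran from 0.587% (Satb1) to 9.78% (Anxa1) in the mutant. It ran from 1.52% (Lmo3) to 10.1% (Anxa1) in the wt library, where Otx2 had 9.36%.

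Sox6 and Calb1 were an opposed pair in both libraries. Of nuclei with a Sox6 tag, 12.7% (11.1 to 14.5%) in the mutant and 17.0% (14.4 to 20%) in the wt library also had a Calb1 tag. Of nuclei without one, 33.9% in the mutant and 42.4% in the wt library did. The odds ratios were 0.284 (0.235 to 0.343) in mutant and 0.280 (0.216 to 0.363) in wt nuclei. Over all genes set against Sox6, Calb1 ranked 37 from the lowest in the mutant and 36 in the wt library.

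Sox6 and Otx2 were both tagged in 38 mutant nuclei, where 69.2 would be shared by independent genes, and in 19 wt nuclei, where 29.9 would be. The odds ratios were 0.334 (0.226 to 0.492) in mutant and 0.422 (0.240 to 0.744) in wt nuclei. In UMI levels, Otx2 was at 4.30 CPM in mutant nuclei with and 15.1 CPM in mutant nuclei without a Sox6 tag, and at 3.85 and 14.2 CPM in wt nuclei. The intervals of the odds ratios overlap.

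Ndnf was opposed to Calb1 and Otx2 in both libraries. It shared 15 mutant nuclei with Calb1, against 60.9 for independent genes, and 33 wt nuclei, against 73.3. The odds ratios were 0.189 (0.112 to 0.318) in mutant and 0.309 (0.210 to 0.455) in wt nuclei. With Otx2 it shared 2 mutant and 4 wt nuclei, at odds ratios of 0.178 (0.0507 to 0.628) and 0.336 (0.127 to 0.889).

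Satb1 and Anxa1 were each less opposed to Calb1 in the mutant library by point value in the main setting. The odds ratio of Satb1 with Calb1 was 0.606 (0.506 to 0.725) in mutant and 0.460 (0.358 to 0.590) in wt nuclei. That of Anxa1 with Calb1 was 0.801 (0.378 to 1.70) in mutant and 0.366 (0.168 to 0.796) in wt nuclei. In both cases the intervals overlap. For Satb1 the order of the libraries turned without thinning, to 0.545 in mutant and 0.614 in wt nuclei. Lmo3 with Calb1 stood at 0.529 in mutant and 0.537 in wt nuclei.

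Anxa1 with Otx2 was the one nigral and tegmental pair with an odds ratio of 2 or more. It rested on 5 mutant nuclei, against 1.99 for independent genes, and its odds ratio was 3.01 (1.21 to 7.46). Of 11080 genes set against Anxa1 in the mutant, 10.6% had a ratio of 2 or more, and Otx2 ranked 245 from the highest. In the wt library the pair shared 3 nuclei and stood at 1.47 (0.480 to 4.48). Nfix had no odds ratio of 0.5 or less with a nigral gene in either library. Its lowest was with Ndnf in the mutant, at 0.525 (0.278 to 0.991), which turned to 1.40 without thinning. With Sox6 it stood at 0.919 (0.682 to 1.24) in mutant and 1.31 (0.766 to 2.23) in wt nuclei.

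**Figure D3:**
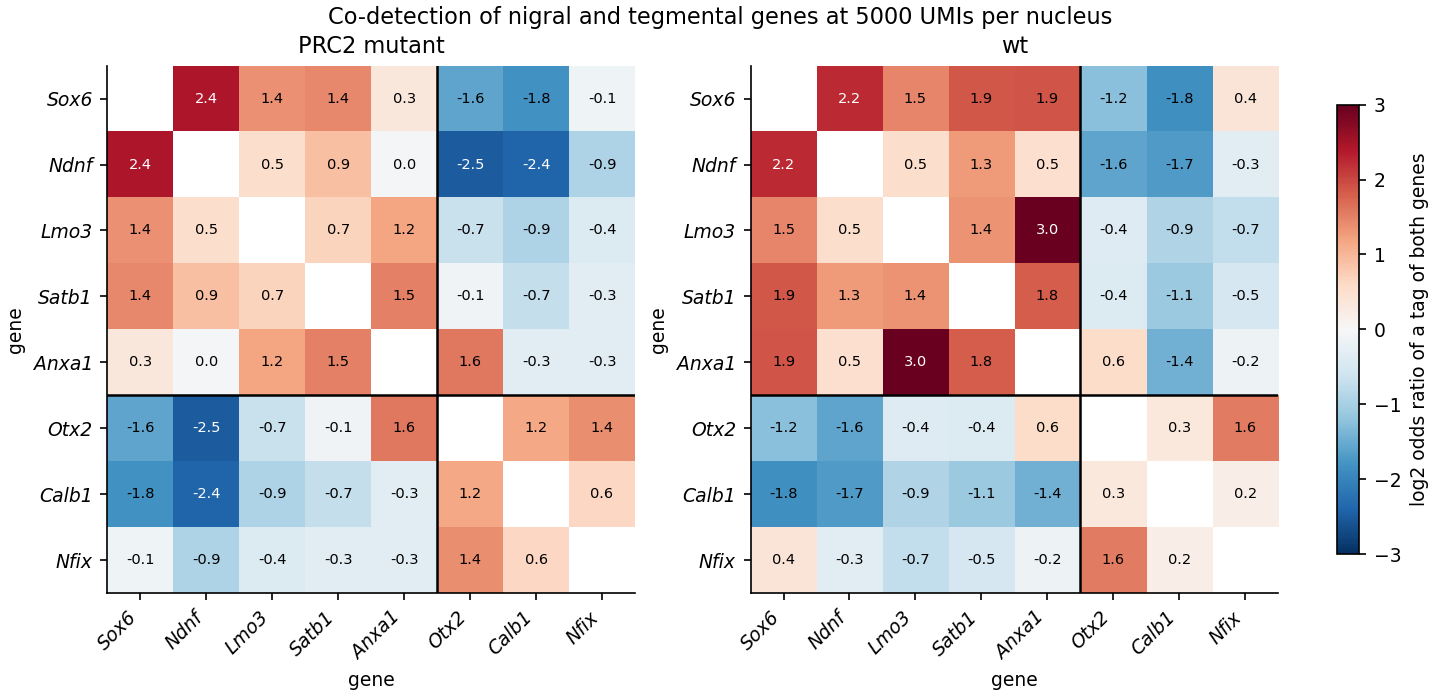
Log2 odds ratio of a tag of both genes in a nucleus thinned to 5000 UMIs, for each pair of the 8 genes, in PRC2 mutant nuclei (left) and wt nuclei (right); blue is below 0 and red above it, and black lines part nigral from tegmental genes. The blocks that join Sox6 and Ndnf with Otx2 and Calb1 are blue in both libraries, and Lmo3 with Anxa1 is the darkest red field of the wt library.

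Within the nigral list Sox6 and Ndnf went together in both libraries. Of mutant nuclei, 15.2% with and 3.20% without a Sox6 tag had an Ndnf tag, and of wt nuclei 30.3% and 8.36%. The odds ratios were 5.36 (3.79 to 7.57) in mutant and 4.72 (3.36 to 6.63) in wt nuclei, and these intervals overlap.

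Lmo3 and Anxa1 had a lower odds ratio in the mutant by point value. The pair was tagged in 23 mutant nuclei, against 14.3 for independent genes, and in 46 wt nuclei, against 20.6. The odds ratio was 2.29 (1.27 to 4.10) in mutant and 7.85 (4.07 to 15.1) in wt nuclei, with intervals that overlap narrowly, and in the wt library no other of 11014 genes had a higher one with Lmo3. Anxa1 was at 7.28 CPM in mutant nuclei with and 2.45 CPM in mutant nuclei without an Lmo3 tag, and at 32.6 and 3.05 CPM in wt nuclei. The libraries were close where Lmo3 had no tag and further apart where it had one.

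Sox6 with Anxa1 stood at 1.27 (0.698 to 2.32) in mutant and 3.69 (1.87 to 7.26) in wt nuclei, and Satb1 with Anxa1 at 2.87 (1.43 to 5.73) and 3.50 (1.78 to 6.90). Ndnf with Anxa1 stood at 0.978 (0.367 to 2.61) in mutant and 1.42 (0.779 to 2.58) in wt nuclei, on 4 and 15 shared nuclei. Both intervals include 1. The wt ratio was over 1 in all 10 settings, at 2.08 without thinning, while the mutant one lay on both sides of 1. Anxa1 was at 21.7 CPM in wt nuclei with and 12.4 CPM in wt nuclei without an Ndnf tag. In mutant nuclei it was at 3.06 and 4.25 CPM. Ndnf and Anxa1 are both nigral markers, and each was found with Sox6 in the wt library.

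Within the tegmental list Otx2 with Calb1 stood at 2.22 (1.53 to 3.23) in mutant and 1.24 (0.690 to 2.22) in wt nuclei. Calb1 with Nfix stood at 1.53 (1.10 to 2.12) in mutant and 1.15 (0.654 to 2.01) in wt nuclei. The wt intervals of both pairs include 1. Otx2 with Calb1 was over 1 in all 10 settings in both libraries, at 3.26 in mutant and 3.60 in wt nuclei without thinning. The Otx2 level with a Calb1 tag over that without one was 1.96 (1.64 to 2.34) in mutant and 1.98 (1.56 to 2.51) in wt nuclei. For Calb1 with Nfix the order of the libraries turned without thinning, to 1.28 in mutant and 1.67 in wt nuclei. Otx2 with Nfix stood at 2.63 (1.57 to 4.41) in mutant and 2.95 (1.24 to 7.01) in wt nuclei, on 18 and 6 shared nuclei, and turned to 0.404 in the mutant with thinning to 2000 UMIs. In the wt library 9.85% of all genes set against Otx2 and 10.1% of those set against Nfix reached 2, and in the mutant 4.26% and 2.00%.

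The genes most like each member across wt nuclei were named from Pearson's r of log levels over 12932 genes, with r in the mutant beside it. Nuclei share their library and depth, so these are descriptions. Lmo3 and Anxa1 both had Aldh1a1, a retinaldehyde dehydrogenase gene, as the most alike gene. Its r was 0.30 in mutant and 0.58 in wt nuclei for Lmo3 and 0.28 and 0.47 for Anxa1. The annotated spans of Anxa1 and Aldh1a1 lie 101771 bases apart on chromosome 19. Aldh1a1 was at 96.2 CPM in mutant and 188 CPM in wt nuclei.

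Sox6 was most like Pex5l, at r of 0.72 in mutant and 0.71 in wt nuclei, followed by Nwd2 and Epha4. Ndnf was most like Kcns3, a potassium channel subunit, at 0.38 in mutant and 0.62 in wt nuclei, and Satb1 was most like Sox6, at 0.47 and 0.55. Calb1 was most like Kcnh5, another potassium channel gene, at 0.36 and 0.46. Otx2 was most like Otx2os1, at 0.38 and 0.47. Otx2 and Otx2os1 overlap by 5112 bases on opposite strands, and the sources at hand do not say how the counting used strand, so their tags may not be separate. Nfix was most like Daam2 (0.20 in mutant and 0.54 in wt nuclei), Nfia (0.31 and 0.51) and Prr5l (0.23 and 0.51).

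Of 11 other nigral genes, 6 were lower and 1 was higher in the mutant by the 1.5-fold rule, with a median log2 ratio of -0.61, against 0.02 over all genes, of which 1.46% were lower and 2.01% higher. Lower were Aldh1a1, Aldh1a7, Igf1, Vcan, Fgf20 and Kcnj6. Igf1, a growth factor gene, was at 47.8 CPM in mutant and 96.5 CPM in wt nuclei, and Kcnj6, which encodes the potassium channel GIRK2, at 617 and 1051 CPM. Higher was Grin2c, an NMDA receptor subunit gene, at 54.0 CPM in mutant and 25.4 CPM in wt nuclei.

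Of 12 other tegmental genes, 1 was lower and 0 were higher, against the same 1.46% and 2.01% of all genes. Tacr3, the neurokinin 3 receptor gene, was at 48.2 CPM in mutant and 100.4 CPM in wt nuclei. In wt nuclei it was not kept to those with tegmental tags. It was at 109 CPM with an Ndnf tag and 93.1 CPM with Sox6 but no Calb1. With Calb1 or Otx2 but no Sox6 it was at 78.3 and 95.6 CPM. The mutant values in the same order were 30.6, 35.6, 70.2 and 120 CPM. Slc17a6, the vesicular glutamate transporter gene, was at 31.7 CPM in mutant and 24.6 CPM in wt nuclei.

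Relatives of the members were also measured. Sox5, a partner of Sox6 in the SoxD family, was at 57.6 CPM in mutant and 33.2 CPM in wt nuclei. Lmo2, a relative of Lmo3, was at 11.5 CPM in mutant and 4.84 CPM in wt nuclei, and Lmo4 at 28.1 and 60.4 CPM.

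The lists moved in opposite directions with the dopamine gene level of a wt nucleus. With 5 to 10 UMIs of the gate genes per 10000, 10 to 20, 20 to 30 and 30 or more, the nigral sum of wt nuclei was 406, 544, 991 and 1297 CPM. The tegmental sum of the same wt nuclei was 150.3, 135, 104 and 54.7 CPM. In mutant nuclei the nigral sum was 656, 872, 817 and 704 CPM and the tegmental sum 82.2, 72.7, 81.6 and 125 CPM. The bins held 746, 1550, 432 and 57 mutant and 125, 298, 470 and 367 wt nuclei.

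The ratio of mutant to wt therefore depended on the bin. For the nigral sum it was 1.62, 1.60, 0.824 and 0.542 from the lowest to the highest bin, and for the tegmental sum 0.546, 0.538, 0.787 and 2.28. Over all gated nuclei the ratios were 0.857 (0.845 to 0.868) for the nigral and 0.771 (0.739 to 0.803) for the tegmental sum. Since the gate genes were lower in the mutant, nuclei at the same dopamine level need not be the same kind of neuron in both libraries. Ndnf turned with the bin. It was at 26.3 CPM in mutant and 11.8 CPM in wt nuclei of the lowest bin, a ratio of 2.24 (1.56 to 3.33), and at 32.2 CPM in mutant and 29.8 CPM in wt nuclei of the next, a ratio of 1.08 (0.95 to 1.24). In the 20 to 30 bin it was at 26.9 CPM in mutant and 87.1 CPM in wt nuclei, a ratio of 0.308 (0.265 to 0.358), and in the highest bin at 31.6 CPM in mutant and 128 CPM in wt nuclei, a ratio of 0.246 (0.152 to 0.378). Anxa1 was below its wt level in all 4 bins by point value, at ratios of 0.696, 0.618, 0.569 and 0.497, and the intervals of the lowest and the highest bin include 1.

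The odds ratio of the lists moved with the bin and not alike in the libraries. From the lowest to the highest it was 0.660 (0.468 to 0.931), 0.362 (0.278 to 0.470), 0.237 (0.141 to 0.398) and, on 57 nuclei, 1.60 (0.325 to 7.90) in the mutant. In the wt library it was 0.735 (0.350 to 1.54), 0.769 (0.472 to 1.26), 0.406 (0.247 to 0.669) and 0.147 (0.0685 to 0.314). The intervals of the libraries overlap in the lowest and the 20 to 30 bin and narrowly fail to overlap in the other two.

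**Figure D4:**
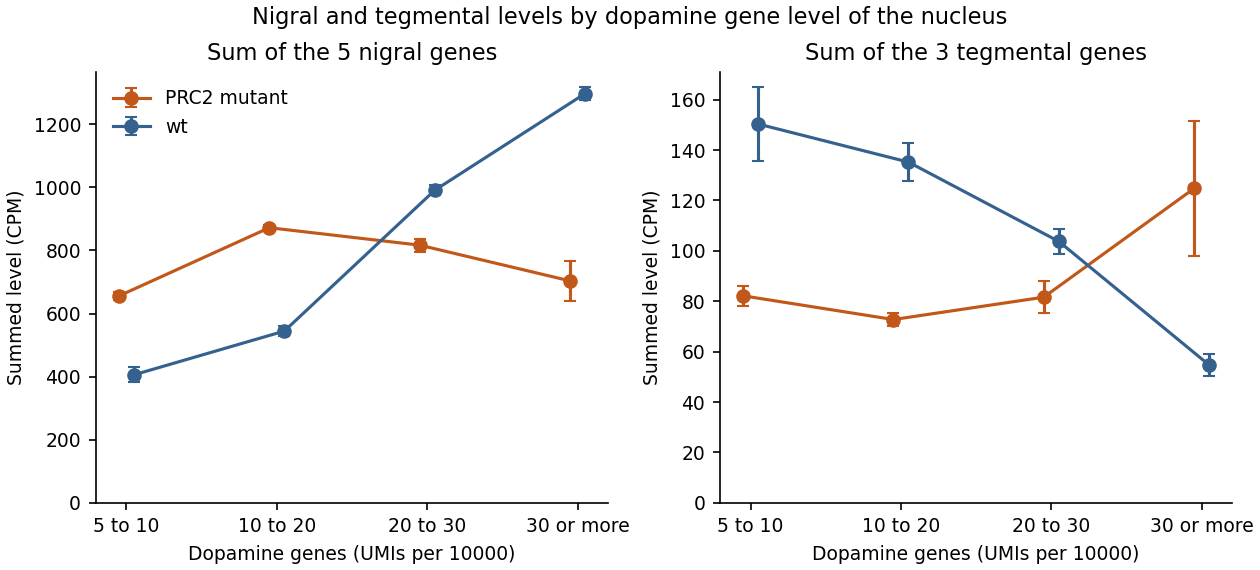
Summed level (CPM) of the 5 nigral genes (left) and the 3 tegmental genes (right) by the dopamine gene level of the nucleus (UMIs per 10000), in PRC2 mutant (orange) and wt (blue) nuclei; bars are 95% counting intervals. The wt nigral sum runs up to 1297 CPM and the wt tegmental sum down to 54.7 CPM, and the lines of the libraries cross in both panels.

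Mutant nuclei differed among themselves with the tags of 11 developmental regulators (Hox, Pax, Tbx, Gata4 and Sim2 genes) that were chosen from earlier results of these data. After thinning to 5000 UMIs, 754 mutant nuclei had 0 of these tags, 652 had 1 or 2 and 1379 had 3 or more, while 29 wt nuclei had 1 or 2 and 1 had 3 or more. Sox6 was at 177 CPM in mutant nuclei with 0 tags, 389 CPM with 1 or 2 and 560.2 CPM with 3 or more. Ndnf was at 7.17, 19.4 and 42.6 CPM in the same order.

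The tegmental genes and Anxa1 ran the other way. Calb1 was at 95.5, 66.0 and 34.1 CPM with 0, with 1 or 2 and with 3 or more tags. Otx2 was at 17.1, 9.12 and 4.76 CPM and Anxa1 at 9.30, 4.83 and 1.96 CPM. Of the gate genes, Slc18a2, which loads dopamine into vesicles, was at 383, 291 and 289 CPM and Th, the rate-limiting enzyme, at 83.5, 72.8 and 72.2 CPM. Slc6a3, the dopamine transporter gene, was at 176, 195 and 195 CPM and Ddc, the decarboxylase gene, at 784, 791 and 799 CPM.

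The odds ratio of the lists moved with the same tags. It was 0.792 (0.587 to 1.07) in mutant nuclei with 0 tags, 0.513 (0.352 to 0.746) with 1 or 2 and 0.349 (0.243 to 0.50) with 3 or more. That of Sox6 with Calb1 was 0.760, 0.322 and 0.225 in the same order, and that of Sox6 with Otx2 was 0.473, 0.473 and 0.415. In the 1230 wt nuclei with 0 tags the odds ratio of the lists was 0.398 (0.299 to 0.531). This interval lies below that of mutant nuclei with 0 tags. Median depths of the mutant classes before thinning were 14351.5, 18854 and 23453 UMIs in the same order. Within the deepest of 3 depth classes of equal size of mutant nuclei, where the medians were 35917 UMIs with 3 or more tags and 35497 with 0, Sox6 was at 560 and 231 CPM, Ndnf at 41.5 and 8.54 CPM, Anxa1 at 1.85 and 7.21 CPM and Otx2 at 4.85 and 16.9 CPM. Each of the 8 genes had the same direction between these tag classes in all 3 depth classes by point value, and the intervals of Lmo3 and Nfix in the middle class include equal levels.

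**Figure D5:**
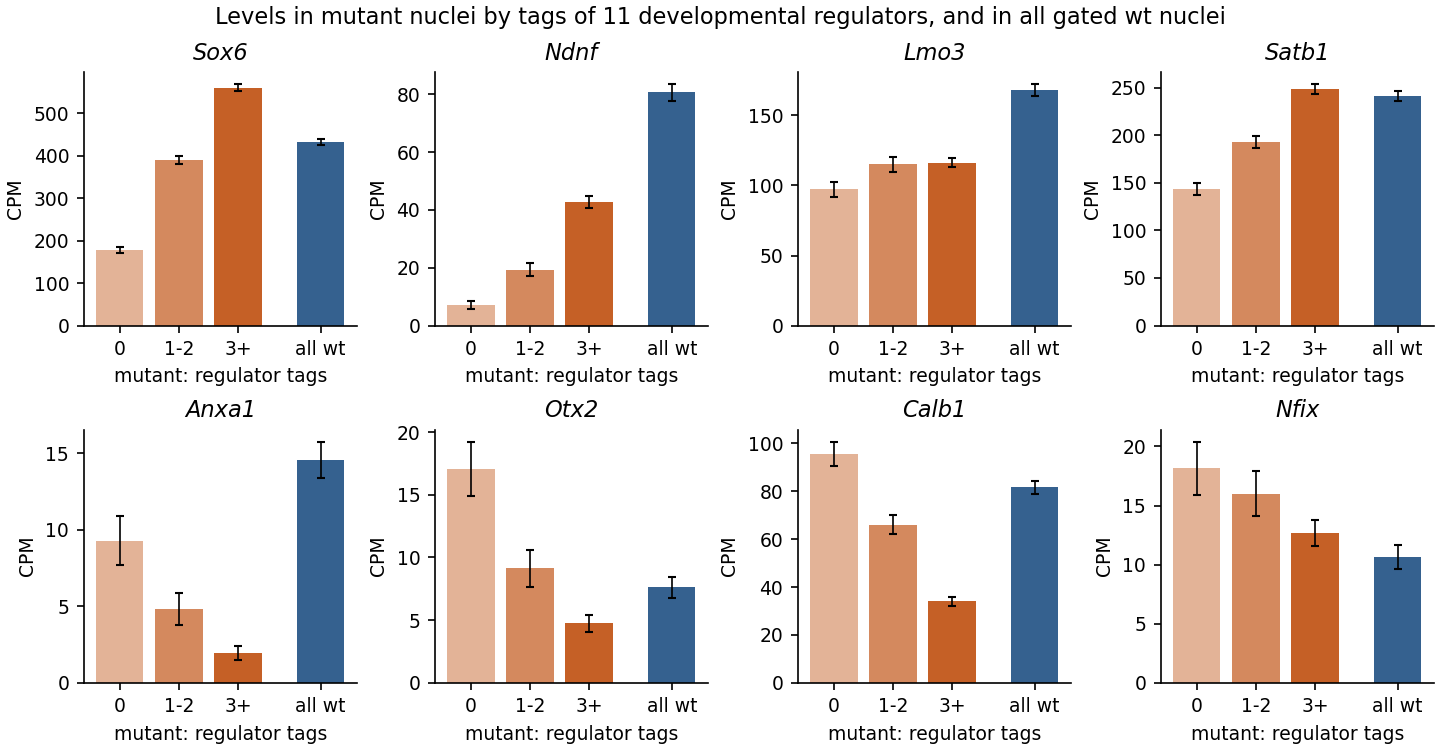
Level (CPM) of each gene in PRC2 mutant nuclei with 0, 1 to 2 and 3 or more tags of 11 developmental regulators (orange, light to dark) and in all gated wt nuclei (blue); bars are 95% counting intervals and each panel has its own scale. Sox6 and Ndnf are higher with more tags, at 560.2 and 42.6 CPM with 3 or more, and Anxa1, Otx2 and Calb1 are lower.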

How the data were processed

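Nuclei of adult mouse midbrain were sorted and made into 10x Single Cell 3' v3 libraries, per the labels' protocols. The authors deposited raw UMI counts per gene and nucleus, and Cell Ranger 3.1.0 and the mouse build mm10 are listed, with no role, in the submitters' processing notes. The start of a column name gave the genotype: WT_ was read as wt and KO_ as PRC2 mutant. The sources at hand do not say which nuclei were removed before deposit.

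Gated nuclei held 68459537 mutant and 39250323 wt UMIs. CPM are summed counts over these totals, and the interval of a ratio is the exact binomial one for how its counts divide between the libraries. Genes were counted at 1.5-fold with a pseudocount of 5 CPM and at least 50 UMIs over both libraries. Co-detection used nuclei thinned without replacement to 5000 UMIs. Odds ratios had 0.5 added to each of the 4 counts, with Woolf 95% intervals, and shares have exact binomial intervals. Intervals cover counting error only. Doublets were not called. No test was made, since each genotype had 1 library. Fold and odds ratio steps were tested on simulated data. Python 3.11.15, numpy 2.4.6, scipy 1.17.1, pandas 2.3.3 and matplotlib 3.10.9 were used.

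The members and gene lists were chosen with earlier results of these data known. Named genes are the members, the gate genes, the 3 genes most like each member in wt nuclei (tagged in at least 5% of them) and genes of the fixed lists. The count over the list of related family members and 1 gene of it are not reported here. The depth classes, the split by glial tags and Eed were added after the data were seen. Alternatives were other gates, depth limits, thinning, scaling and exclusions.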

Additional observations from a re-analysis of the deposited data

How the results depend on the processing

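The opposition of the lists had the same direction under each alternative run on the whole gate, but not in the 57 mutant nuclei of the highest dopamine bin (1.60). The mutant odds ratio was 0.346 with the gate at 10 UMIs per 10000, 0.557 without thinning and 0.684 with 2 tags or more required, and the wt one was 0.552 with 2 tags or more. Opposed pairs at 0.5 or less numbered 7 in the mutant with thinning to 2000 UMIs, and 3 in the wt library both without thinning and with 2 tags or more. The nigral ratio of mutant to wt was 0.843 with the gate at 2 and 0.883 at 10 UMIs per 10000, 0.874 as a mean over nuclei and 0.839 with dopamine bins weighted as in the wt, which gave 0.925 for the tegmental sum. A pseudocount of 1 CPM gave 704 genes higher and 592 lower.

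Sox6 turned to 0.996 of the wt level with the gate at 2 and to 0.931 with weighted bins. In the mutant, Ndnf with Nfix turned to 1.34 with thinning to 2000 UMIs, 1.40 without thinning and 1.81 with 2 tags or more. Lmo3 with Otx2 turned to 1.04 with thinning to 2000 UMIs and 1.15 with 2 tags or more, and Otx2 with Nfix to 0.404 with thinning to 2000 UMIs. The cause was not tested. Of 504 pair values under alternatives, 416 stayed within the interval reported. On the other side of 1 lay 39, of which 6 belong to pairs whose own interval excludes 1, given above. Leaving out 1 replicate was not possible, because the lanes are not kept apart. No paired analysis was possible because there is 1 library per genotype. Pairs with Anxa1, Otx2 or Nfix rest on few nuclei at this depth.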
